A study of Homo sapiens with 6 samples.

Results

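KMT2A, its most frequent partner in infant leukemia AFF1, and 8 genes whose proteins work with them at transcribed chromatin were followed here in SEM::mock and SEM::EGR3. These 10 genes were chosen by name from a table of 35410 genes, and each of the 10 names was found in exactly 1 row. Each member also passed the expression filter, so all 10 were tested. Counts of the members lay between 27 and 1859 per library.

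MACE-Seq, which reads the 3′ ends of polyadenylated RNA, was run on 6 libraries, 3 biological replicates for each of the lines SEM::mock and SEM::EGR3. SEM is an established proB cell line from leukemia and carries a KMT2A::AFF1 fusion. SEM::mock carries the empty vector and SEM::EGR3 a doxycycline-inducible vector for EGR3, a zinc finger transcription factor of the immediate early genes, and both lines received 1 µg/mL doxycycline 48 h before RNA was taken. Whether each line is a single clone is not given in the sources used here. Gene counts summed to between 5286115 and 6181388 in the SEM::mock libraries and between 7293092 and 15106018 in the SEM::EGR3 libraries, so a given level is known less precisely in SEM::mock. EGR3 (ENSG00000179388) itself had 6 to 10 counts in the SEM::mock libraries and 4952 to 9768 in the SEM::EGR3 libraries (log2 fold change 8.78, standard error (SE) 0.11, adjusted p = 1.27e-26).

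KMT2A is a histone H3 lysine methyltransferase that reaches chromatin together with menin (MEN1) and LEDGF (PSIP1). In KMT2A-rearranged leukemia, its amino-terminal part is joined to a partner such as AFF1, AFF4, MLLT1, MLLT3, MLLT10 or ELL. Most of these partners belong to the super elongation complex, which brings the kinase P-TEFb to paused RNA polymerase, or to the complex of DOT1L, the methyltransferase for lysine 79 of histone H3. Since MACE-Seq counts 3′ ends, a KMT2A::AFF1 transcript is counted at AFF1 and a reciprocal AFF1::KMT2A transcript at KMT2A. The counts of KMT2A and AFF1 therefore include wild-type transcripts and any fusion transcripts that end there, and these could not be separated. Whether fusion transcripts were present in either line was not tested.

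Many markers of the labelled cell type were at or near 0 in the libraries labelled SEM::mock. Of 12 known targets of KMT2A fusions, HOXA3, HOXA7, HOXA9 and PROM1 had at most 3 counts in each SEM::mock library, with HOXA7 at 0 in each. The summed level of the 12 genes was 199.8 to 216.7 CPM in SEM::mock against 1525 to 1636 CPM in SEM::EGR3. All 12 were called higher in SEM::EGR3 (median log2 fold change 3.28), beside 36.5% of all tested genes. Genes at or near 0 in SEM::mock could only be called higher. Of 10 B-lineage markers, 7 (PAX5, EBF1, CD79A, VPREB1, IGLL1, DNTT and CD22) had at most 3 counts in each SEM::mock library, and the list summed to 2.65 to 5.88 CPM there against 496.6 to 524.2 CPM in SEM::EGR3. EBF1 and DNTT were at 0 in each SEM::mock library. VPREB1, with 5 to 8 counts, and DNTT, with 0 to 2, were also scarce in SEM::EGR3. Erythroid markers were abundant in both lines, with a summed level of 4736 to 5021 CPM in SEM::mock and 6079 to 6326 CPM in SEM::EGR3. HBG2 was the most abundant in SEM::mock and HBZ in SEM::EGR3, while HBE1 had at most 2 counts in any library. Myeloid markers (7 genes of the list were found) summed to 286.5 to 298.3 CPM in SEM::mock and 218.2 to 220.3 CPM in SEM::EGR3. MPO and CSF1R were at 0 and AZU1 at no more than 3 counts in each SEM::mock library. Of the 3 myeloid markers tested, CD33 and LYZ were lower in SEM::EGR3 (log2 fold changes -1.37 and -1.85) and CEBPA was higher (3.35). The 8 T cell markers summed to 86.9 to 99.6 CPM in SEM::mock and 131.9 to 144.3 CPM in SEM::EGR3. Of the 6 T cell markers tested, LCK, TRAC and CD2 were higher in SEM::EGR3 (log2 fold changes 8.59, 5.94 and 4.88, LCK and CD2 from at most 2 counts per SEM::mock library), whereas CD3D, CD3E and TRBC1 were lower (-3.25, -2.73 and -4.23). CD7 was at 0 in each SEM::mock library and at most 4 counts in SEM::EGR3. Every comparison below sets SEM::EGR3 against all 3 of these SEM::mock libraries, so none could be given without them. Effects of EGR3 and any other difference between the lines cannot be told apart, and neither can, in bulk RNA, fewer cells of a type and less RNA per cell.

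To show the promoters of the members that moved most, the sequences from 250 bases before to 50 bases after the transcription start are given for MLLT3, the member with the largest decrease, and PSIP1, the member with the largest increase. The sequence of MLLT10 is added as the one member window that holds an EGR motif. Sequences are from RefSeq (GRCh38.p14), are written 5′ to 3′ on the strand of the gene, and lie at chr9:20622450-20622749 (minus strand, MLLT3), chr9:15510921-15511220 (minus strand, the first of 2 windows of PSIP1) and chr10:21533982-21534281 (plus strand, the first of 2 windows of MLLT10). Capitals mark matches to a motif that EGR proteins can bind.
MLLT3: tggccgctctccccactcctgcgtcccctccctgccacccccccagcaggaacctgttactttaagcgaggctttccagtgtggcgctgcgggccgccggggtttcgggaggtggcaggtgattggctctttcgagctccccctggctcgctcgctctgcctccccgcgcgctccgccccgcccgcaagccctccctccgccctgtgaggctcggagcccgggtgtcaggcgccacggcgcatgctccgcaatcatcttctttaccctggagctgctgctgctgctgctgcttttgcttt
PSIP1: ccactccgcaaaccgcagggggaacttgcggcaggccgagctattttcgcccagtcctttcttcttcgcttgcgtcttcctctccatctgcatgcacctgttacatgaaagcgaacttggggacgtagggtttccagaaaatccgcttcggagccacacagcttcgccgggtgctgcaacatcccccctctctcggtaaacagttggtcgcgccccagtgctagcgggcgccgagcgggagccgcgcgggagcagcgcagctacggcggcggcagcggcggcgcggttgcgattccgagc
MLLT10: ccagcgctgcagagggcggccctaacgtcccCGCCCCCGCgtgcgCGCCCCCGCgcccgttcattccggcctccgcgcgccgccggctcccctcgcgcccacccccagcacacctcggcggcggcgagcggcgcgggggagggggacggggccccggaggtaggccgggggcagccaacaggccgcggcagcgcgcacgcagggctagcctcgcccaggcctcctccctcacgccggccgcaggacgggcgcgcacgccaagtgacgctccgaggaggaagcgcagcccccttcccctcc

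Promoter windows were found for 9 of the 10 members (13 windows). For DOT1L none was matched. The motif GCGTGGGCG, searched on both strands, was in none of the 13 windows and in 279 of all 35116 RefSeq windows (0.795%). The motif GCGGGGGCG was in 1781 of all windows (5.07%) and in 1 member window, that of MLLT10, which holds it on the opposite strand at 2 sites that do not overlap. The first bases of these sites lie 219 and 205 bases before the start. Member windows had a GC content of 56.3% to 80.3%, where the median of all windows was 58.7%. These matches describe letters only, and binding was not measured in these data.

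At an adjusted p under 0.05, SEM::EGR3 had higher levels of 3 of the 10 members and lower levels of 4 (edgeR's quasi-likelihood test, Benjamini-Hochberg over all tested genes), and 3 did not pass the threshold. Across all 15465 tested genes, 36.5% were called higher and 32.0% lower, 68.5% in all, so 7 called members of 10 is near the background. MLLT3 alone differed by at least 1 on the log2 scale, and the median log2 fold change of the members was -0.07, compared with 0.03 for all tested genes. Levels of the 3 SEM::EGR3 libraries did not overlap those of SEM::mock for 8 of the 10 members, beside 70.1% of all tested genes. All levels are TMM-normalized CPM, that is, counts per 1000000 counts of the tested genes after scaling between libraries, and they are compared between lines for 1 gene at a time.

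**Figure D1:**
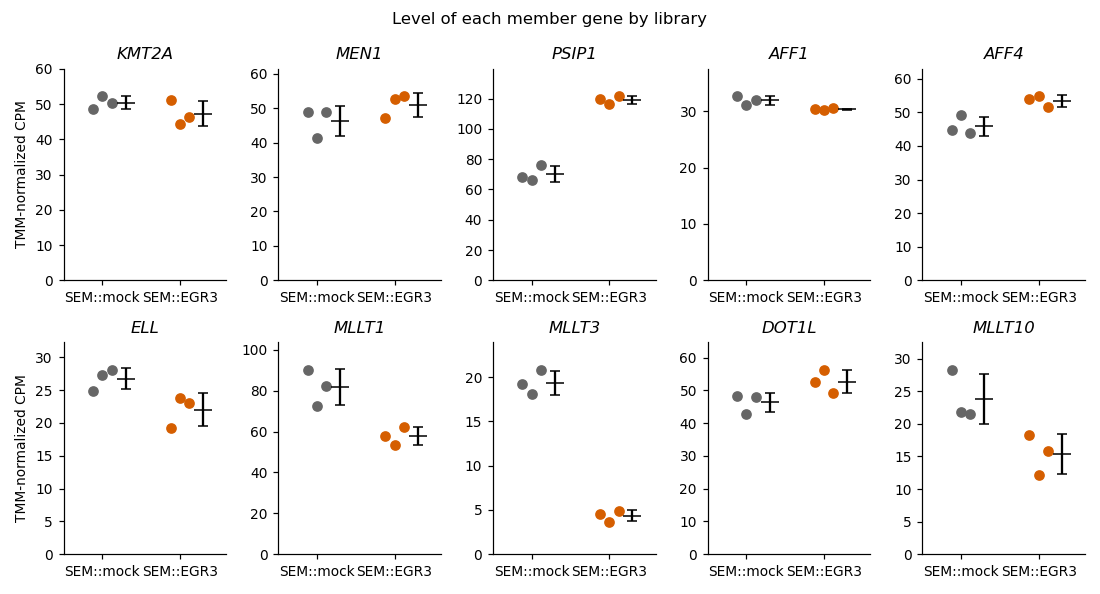
TMM-normalized CPM (y axes, linear, from 0) of each of the 10 member genes in the 3 SEM::mock (grey) and 3 SEM::EGR3 (orange) libraries; black marks give the mean and SD of each line. MLLT3 lies between 18.1 and 20.8 CPM in SEM::mock and between 3.64 and 4.86 CPM in SEM::EGR3, while KMT2A and MEN1 overlap between the lines.

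**Figure D2:**
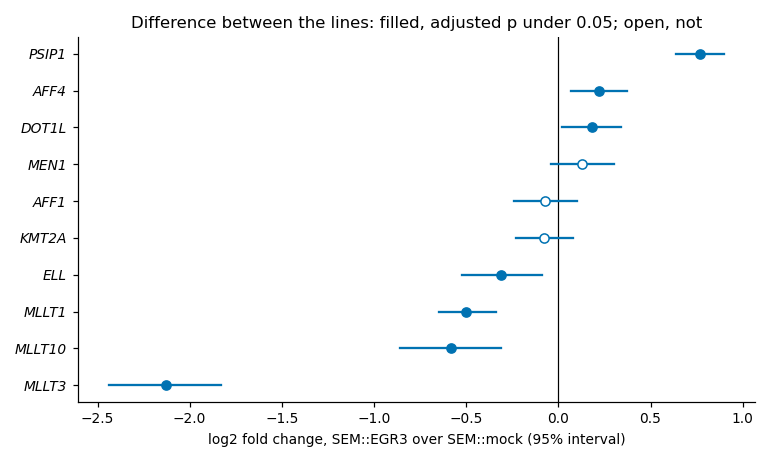
Fitted log2 fold change of SEM::EGR3 over SEM::mock (x axis) of each member with its 95% interval; filled points passed an adjusted p of 0.05 and open points did not. MLLT3 lies apart at -2.13, PSIP1 is highest at 0.77, and the intervals of KMT2A, AFF1 and MEN1 include 0.

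KMT2A (ENSG00000118058, chromosome 11, 118436464 to 118526832, plus strand, GENCODE release 29 on GRCh38) did not differ detectably between the lines. Its levels were 48.6, 52.3 and 50.2 CPM in SEM::mock replicates 1 to 3 and 51.3, 44.3 and 46.4 CPM in SEM::EGR3 replicates 1 to 3. The groups overlapped, as SEM::EGR3 replicate 1 exceeded 2 of the 3 SEM::mock libraries. The means were 50.4 ± 1.84 and 47.3 ± 3.57 CPM (SD, n = 3 each). Their log2 fold change of -0.08, with a 95% interval from -0.23 to 0.08, did not pass the test (adjusted p = 0.385). Of the tested genes within 2 Mb of KMT2A, 18 were higher, 20 lower and 17 not called, with a median log2 fold change of -0.02.

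MEN1 (ENSG00000133895, chromosome 11, 64803510 to 64811294, minus strand) encodes menin, the scaffold between KMT2A and LEDGF. MEN1 was at 48.9, 41.4 and 48.8 CPM in SEM::mock and at 47.0, 52.5 and 53.5 CPM in SEM::EGR3, so that the lines overlapped. Its log2 fold change of 0.13 (95% interval -0.04 to 0.30, adjusted p = 0.161) did not pass the threshold.

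PSIP1 (ENSG00000164985, chromosome 9, 15464066 to 15511019, minus strand) encodes LEDGF, which reads methylated lysine 36 of histone H3 and holds menin and KMT2A at chromatin. PSIP1 was at 68.2, 66.5 and 76.1 CPM in SEM::mock and at 119.9, 116.5 and 121.7 CPM in SEM::EGR3. Every SEM::EGR3 library lay well above every SEM::mock library. From 70.3 ± 5.12 to 119.4 ± 2.63 CPM (SD, n = 3 each), PSIP1 rose 1.70-fold (log2 fold change 0.77, SE 0.06, adjusted p = 1.14e-10), the largest increase among the members. Its log2 fold change stayed between 0.72 and 0.85 under the 12 alternatives. Only 7 other genes within 2 Mb of PSIP1 were tested, of which 4 were higher and 1 lower, beside 36.5% and 32.0% of all tested genes. The median log2 fold change of these 7 genes was 0.54. The part of this neighbourhood in the difference of PSIP1 was not tested.

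The list of 11 genes of the KMT2A complex, 3 of them members, held 5 genes called higher and 3 called lower. Its median log2 fold change was 0.13. Of all tested genes, 36.5% were called higher and 32.0% lower. ASH2L, a core subunit that stimulates the methyltransferase, fell from 117.1 ± 3.13 to 66.3 ± 0.785 CPM (SD, n = 3 each; log2 fold change -0.82, SE 0.06, adjusted p = 8.01e-12). RBBP5, its partner in the core, fell from 36.0 ± 3.33 to 22.3 ± 1.71 CPM (log2 fold change -0.67, adjusted p = 1.04e-06). TASP1, the protease that cleaves KMT2A into its mature parts, rose from 3.30 ± 0.451 to 5.84 ± 1.19 CPM (log2 fold change 0.83, adjusted p = 0.00241), from only 16 to 20 counts per SEM::mock library. The KMT2A complex genes therefore included changes in both directions, and KMT2A itself was among the 3 genes not called, with MEN1 and WDR5.

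AFF1 (ENSG00000172493, chromosome 4, 86935002 to 87141054, plus strand), a scaffold of the super elongation complex, carries the 3′ end of KMT2A::AFF1 transcripts. AFF1 was at 32.7, 31.2 and 32.0 CPM in SEM::mock and at 30.4, 30.3 and 30.5 CPM in SEM::EGR3. All 3 SEM::EGR3 libraries lay just below the lowest SEM::mock library, yet the difference was small. With a log2 fold change of -0.07 (95% interval -0.24 to 0.10, adjusted p = 0.465), AFF1 did not pass the threshold. Its counts were 163 to 186 per SEM::mock library and 225 to 471 per SEM::EGR3 library. These show AFF1 3′ ends in SEM::mock at about the level of SEM::EGR3. Of the fusion targets described above, HOXA3, HOXA7, HOXA9 and PROM1 were at or near 0 in SEM::mock, and FLT3 had 1, 0 and 4 counts there. CDK6 had 683 to 907 counts in SEM::mock and was also called higher in SEM::EGR3 (log2 fold change 1.18). RefSeq lists 2 starts of AFF1, and counts of 3′ ends do not separate transcripts from either start or from the fusion.

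AFF4 (ENSG00000072364, chromosome 5, 132875379 to 132963634, minus strand) is the paralog of AFF1 and the main scaffold of the super elongation complex in many cells. Levels of AFF4 were 44.9, 49.1 and 43.7 CPM in SEM::mock and 54.1, 54.8 and 51.5 CPM in SEM::EGR3, without overlap. AFF4 rose 1.16-fold (log2 fold change 0.22, SE 0.07, adjusted p = 0.0111). Without SEM::mock replicate 1 (adjusted p = 0.0611) or SEM::mock replicate 3 (adjusted p = 0.0801), this call was lost. Among the tested genes within 2 Mb of AFF4, 9 were higher and 21 lower, beside 36.5% and 32.0% of all tested genes. The median log2 fold change of these neighbours of AFF4 was -0.22.

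ELL (ENSG00000105656, chromosome 19, 18442663 to 18522127, minus strand) encodes an elongation factor that raises the rate of RNA polymerase II. It was at 24.9, 27.3 and 28.0 CPM in SEM::mock and at 19.2, 23.8 and 23.1 CPM in SEM::EGR3. The lines did not overlap, though SEM::EGR3 replicate 1 lay well below the other two. ELL fell by 0.31 on the log2 scale (SE 0.10, adjusted p = 0.0123). Without SEM::EGR3 replicate 1 the log2 fold change was -0.18 (adjusted p = 0.143), and the call was also lost with DESeq2 (adjusted p = 0.0554) and without normalization factors (adjusted p = 0.0560).

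MLLT1 (ENSG00000130382, chromosome 19, 6210379 to 6279948, minus strand) encodes ENL, a YEATS domain reader of acylated histone H3 that links AFF proteins or DOT1L to chromatin. MLLT1 was at 90.1, 72.7 and 82.4 CPM in SEM::mock and at 57.7, 53.5 and 62.2 CPM in SEM::EGR3. Each SEM::EGR3 library was below each SEM::mock library, although the SEM::mock libraries were themselves spread. MLLT1 averaged 81.7 ± 8.73 CPM in SEM::mock and 57.8 ± 4.37 CPM in SEM::EGR3 (SD, n = 3 each) and so fell by 0.50 on the log2 scale (SE 0.08, adjusted p = 3.54e-06). It kept its direction and its call under all 12 alternatives, between -0.59 and -0.42.

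MLLT3 (ENSG00000171843, chromosome 9, 20341665 to 20622543, minus strand) encodes AF9, the paralog of ENL with the same choice of partners. MLLT3 was counted 109, 108 and 106 times in SEM::mock and, at greater depth, 70, 27 and 44 times in SEM::EGR3. Its levels were 19.3, 18.1 and 20.8 CPM in SEM::mock against 4.52, 3.64 and 4.86 CPM in SEM::EGR3, far apart and without overlap. From 19.4 ± 1.35 to 4.34 ± 0.632 CPM (SD, n = 3 each), MLLT3 was 4.38-fold lower in SEM::EGR3 (log2 fold change -2.13, SE 0.15, 95% interval -2.44 to -1.83, adjusted p = 3.14e-12), the largest difference of any member. The log2 fold change stayed between -2.19 and -2.05 under the 12 alternatives.

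The tested genes within 3 Mb of MLLT3 went mostly the other way. Of these 16 genes, 12 were called higher and 2 lower, beside 36.5% and 32.0% of all tested genes. FOCAD, KLHL9, MTAP and CDKN2A, at 0 or 1 count in each SEM::mock library, passed the filter through SEM::EGR3 alone. These genes could only be called higher. When each library had to hold 10 counts, 7 genes were called higher and 0 lower. The 16 genes had a median log2 fold change of 0.97, also when genes at 0 in SEM::mock are set to their lower bound. On the side of the 3′ end of MLLT3 lie 11 of these 16 genes, of which 8 were higher (median log2 fold change 0.86). RPS6, a protein of the small ribosomal subunit, was higher by 0.86 (SE 0.05) on the log2 scale. RRAGA, a GTPase of amino acid sensing, was higher by 1.29 (SE 0.09), PLIN2, a coat protein of lipid droplets, by 1.06 (SE 0.09), and HAUS6, a subunit of the augmin complex of the spindle, by 0.76 (SE 0.10). CNTLN, AL161909.1, DENND4C and AL391834.1 were called at log2 fold changes of 1.08, 0.87, 0.43 and 1.08. The call of DENND4C was lost without SEM::mock replicate 1 (0.27, adjusted p = 0.145) or SEM::EGR3 replicate 3 (0.36, adjusted p = 0.0575). AL391834.1, with 4 to 8 counts per SEM::mock library and overlapping lines, lost its call under DESeq2 (adjusted p = 0.0995) and without SEM::mock replicate 1 (adjusted p = 0.0943) or replicate 2 (adjusted p = 0.0821). AL356000.1 (0.05, adjusted p = 0.693) and AL158206.1 (-0.43, adjusted p = 0.134) did not pass the threshold. SLC24A2, the nearest tested gene on that side, was lower, at -1.56 (SE 0.30) from 14 to 20 counts per SEM::mock library.

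On the side of the 5′ end of MLLT3, 4 of 5 tested genes were at 0 or 1 count in every SEM::mock library. FOCAD begins 35.8 kb from MLLT3. It was counted 0, 1 and 0 times in SEM::mock against 168, 89 and 106 times in SEM::EGR3, a ratio of levels of 190.0 (95% counting interval 33.9 to 7520). KLHL9, an adaptor of a ubiquitin ligase, was at 0 throughout SEM::mock but reached 309, 128 and 166 counts in SEM::EGR3. This is at least 34.3-fold higher when SEM::mock is set to 3 counts per library. MTAP, an enzyme of methionine salvage, was counted 0, 0 and 1 times against 380, 182 and 214 times, a ratio of 406 (95% counting interval 72.7 to 16100). CDKN2A, which encodes the cell cycle inhibitor p16, was likewise at 0 throughout SEM::mock and reached 2356, 1127 and 1357 counts in SEM::EGR3. It was at least 280.0-fold higher on the same basis. The antisense RNA CDKN2B-AS1, which overlaps CDKN2A by its annotated ends, was counted in both lines, at 316 to 475 counts in SEM::mock and 452 to 911 in SEM::EGR3, with a log2 fold change of -0.19 (adjusted p = 0.0449), a call that 9 of the 12 alternatives ended. MLLT3 was thus counted in SEM::mock beside a run of 4 tested genes that were at 0 or 1 count there, and the part of this stretch in the difference of MLLT3 was not tested.

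**Figure D3:**
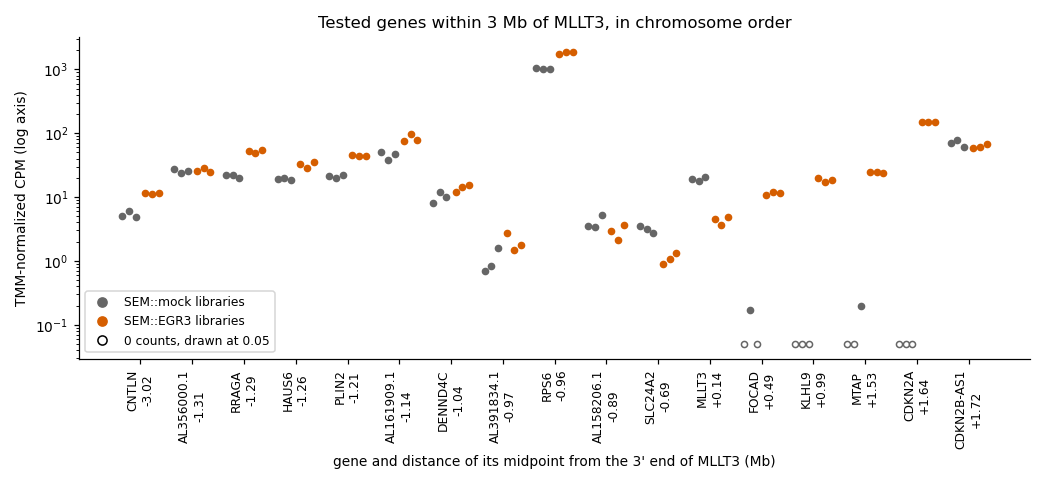
TMM-normalized CPM (y axis, log scale) of the 16 tested genes within 3 Mb of MLLT3 and of MLLT3 itself, in chromosome order; numbers under the names give the distance of each gene's midpoint from the 3′ end of MLLT3 in Mb, points are single libraries of SEM::mock (grey) and SEM::EGR3 (orange), and open points are 0 counts. FOCAD, KLHL9, MTAP and CDKN2A are at 0 or 1 count in SEM::mock, while MLLT3 is higher in SEM::mock than in SEM::EGR3.

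Within a library, the share of one gene in the counts of a pair of paralogs does not depend on the scaling between libraries. MLLT3 made up 17.6%, 19.9% and 20.2% of the counts of MLLT3 and MLLT1 in SEM::mock and 7.26%, 6.37% and 7.25% in SEM::EGR3, so that MLLT1 3′ ends outnumbered those of MLLT3 in every library and more so in SEM::EGR3. The exact binomial 95% intervals of single libraries, which cover counting error only, lay between 14.7% and 23.8% in SEM::mock and between 4.24% and 9.61% in SEM::EGR3. The mean share was 19.2% ± 1.41 in SEM::mock and 6.96% ± 0.512 in SEM::EGR3 (SD, n = 3 each; exact two-sided permutation test, p = 0.1, and no smaller p is possible with 3 libraries per line). AFF1 made up 41.1% ± 1.94 of the counts of AFF1 and AFF4 in SEM::mock and 36.3% ± 0.838 in SEM::EGR3 (SD, n = 3 each; exact two-sided permutation test, p = 0.1). ELL made up 29.9% ± 0.400 of the counts of ELL and ELL2 in SEM::mock and 38.4% ± 2.06 in SEM::EGR3 (SD, n = 3 each; exact two-sided permutation test, p = 0.1). Both ELL and ELL2 were themselves lower in SEM::EGR3 (log2 fold changes -0.31 and -0.84). None of the 3 shares overlapped between the lines, but this design could not reach a p of 0.05.

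**Figure D4:**
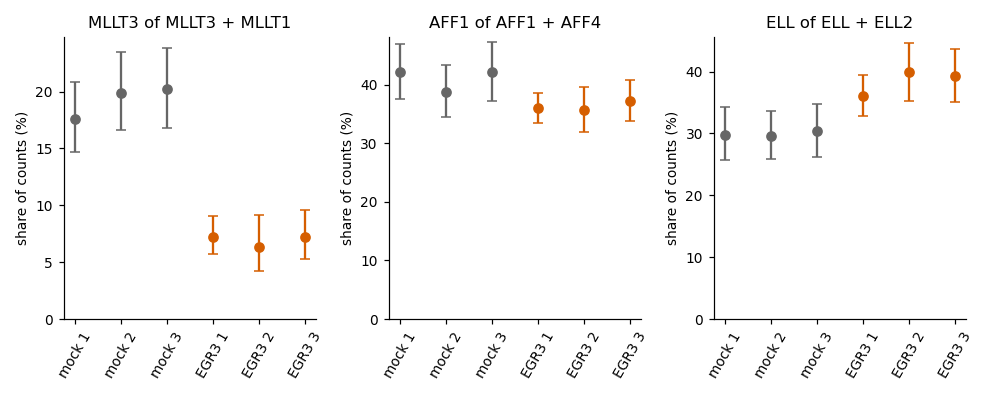
Share of MLLT3, AFF1 and ELL in the counts of each paralog pair (y axes, percent, from 0) in each library of SEM::mock (grey) and SEM::EGR3 (orange), with exact binomial 95% intervals. The share of MLLT3 drops from 17.6% or more to 7.26% or less, that of AFF1 is slightly lower in SEM::EGR3, and that of ELL is higher.

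The super elongation complex list (13 genes, of which 12 were tested) held 4 genes called higher and 5 lower, beside 36.5% and 32.0% of all tested genes. The median log2 fold change of this list was -0.16. Its summed level was 409.1 to 413.5 CPM in SEM::mock and 340.8 to 358.2 CPM in SEM::EGR3. AFF3, another AFF scaffold and a known KMT2A partner, rose from 1.99 ± 0.585 to 11.5 ± 0.967 CPM (log2 fold change 2.55, SE 0.22, adjusted p = 1.76e-10), from 8 to 14 counts per SEM::mock library. ELL2, the ELL paralog that is prominent in plasma cells, fell from 62.7 ± 3.47 to 35.2 ± 1.07 CPM (log2 fold change -0.84, SE 0.07, adjusted p = 3.04e-10). EAF1, which binds ELL proteins, rose from 15.8 ± 1.29 to 21.9 ± 2.68 CPM (log2 fold change 0.47, adjusted p = 0.00108). Of the P-TEFb subunits, CDK9 was called at 0.19 on the log2 scale (adjusted p = 0.0476), with overlapping libraries, and CCNT1 at -0.33 (adjusted p = 0.000428). The call of CDK9 was lost under 7 of the 12 alternatives, among them the replicate block (adjusted p = 0.075), DESeq2 (adjusted p = 0.144) and the removal of SEM::mock replicate 1 (0.11, adjusted p = 0.286), SEM::mock replicate 3 (adjusted p = 0.143), SEM::EGR3 replicate 1 (adjusted p = 0.222) or SEM::EGR3 replicate 2 (adjusted p = 0.051). ELL3 was too low to test, at 0 throughout SEM::mock and at 0 to 6 counts in SEM::EGR3.

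DOT1L (ENSG00000104885, chromosome 19, 2164149 to 2232578, plus strand) was at 48.2, 42.9 and 47.8 CPM in SEM::mock and at 52.6, 56.2 and 49.2 CPM in SEM::EGR3. The lines did not overlap, but the highest SEM::mock and the lowest SEM::EGR3 library were close. The log2 fold change of DOT1L, 0.18 (95% interval 0.02 to 0.34), passed the threshold narrowly (adjusted p = 0.0377). This call was lost under 8 of the 12 alternatives, among them the replicate block (adjusted p = 0.0701), DESeq2 (adjusted p = 0.112) and the removal of any library but SEM::EGR3 replicate 3 (adjusted p from 0.0516 without SEM::mock replicate 1 to 0.249 without SEM::mock replicate 2).

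MLLT10 (ENSG00000078403, chromosome 10, 21524675 to 21743630, plus strand) encodes AF10, the cofactor through which DOT1L methylates histones more fully. MLLT10 was at 28.3, 21.8 and 21.6 CPM in SEM::mock and at 18.3, 12.1 and 15.8 CPM in SEM::EGR3. Both lines were spread, with replicate 1 above the other two in each, but they did not overlap. MLLT10 averaged 23.9 ± 3.81 CPM in SEM::mock and 15.4 ± 3.12 CPM in SEM::EGR3 (SD, n = 3 each) and so fell by 0.58 on the log2 scale (SE 0.13, adjusted p = 0.000417). It kept its call under all 12 alternatives, with log2 fold changes between -0.76 and -0.46. With MLLT1 and MLLT3, 3 of the 5 genes of the DOT1L complex list were lower and 1 was higher (DOT1L). The other, the AF10 paralog MLLT6, was not called (log2 fold change -0.09, 95% interval -0.23 to 0.05). The shares over all tested genes were 32.0% called lower and 36.5% higher.

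Genes that act beside these complexes were read from lists that hold no member. For each of these lists, the shares over all tested genes were 36.5% called higher and 32.0% lower. Of 5 regulators of P-TEFb, 4 were higher and none lower, with a median log2 fold change of 0.31. LARP7, which protects the 7SK RNA that holds P-TEFb inactive, rose from 64.6 ± 1.10 to 83.9 ± 3.00 CPM (log2 fold change 0.38, adjusted p = 1.13e-05). HEXIM2 was called at 0.72 (adjusted p = 0.0145) from 11 to 22 counts per SEM::mock library, with overlapping lines. This call was lost without SEM::mock replicate 2 (0.44, adjusted p = 0.154) or SEM::EGR3 replicate 1 (0.62, adjusted p = 0.0697) and under DESeq2 (adjusted p = 0.0626). Of 6 genes of the PAF1 complex, which travels with RNA polymerase II, 3 were higher and 1 lower. PAF1 itself was called at 0.23 (adjusted p = 0.0135), a call lost without SEM::mock replicate 2 (0.17, adjusted p = 0.0997) or replicate 3 (0.19, adjusted p = 0.0669) and under DESeq2 (adjusted p = 0.0573). RTF1 of this complex rose from 78.9 ± 2.84 to 116.3 ± 1.99 CPM (log2 fold change 0.56, SE 0.06, adjusted p = 1.24e-08), and WDR61 fell from 99.7 ± 6.71 to 75.1 ± 2.28 CPM (log2 fold change -0.40, adjusted p = 5.02e-06). Among 9 pausing and elongation factors, 4 were higher and 1 lower. SUPT5H, which pairs with polymerase as part of DSIF, rose from 104.9 ± 12.7 to 132.5 ± 4.68 CPM (log2 fold change 0.34, adjusted p = 0.000132). SUPT16H, a histone chaperone subunit, rose with a log2 fold change of 0.41 (adjusted p = 1.14e-06), and NELFE, a subunit of the negative elongation factor, fell by 0.27 on the log2 scale (adjusted p = 9.57e-05).

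Of 22 other KMT2A fusion partners, 6 were higher and 10 lower, beside 36.5% and 32.0% of all tested genes. The median log2 fold change of this list was -0.08. LPP, which encodes a LIM protein of cell adhesions, was counted 1, 4 and 2 times in SEM::mock against 369, 168 and 193 times in SEM::EGR3 (log2 fold change 5.71, SE 0.25, adjusted p = 5.09e-16). GAS7 was counted 1, 0 and 0 times against 149, 77 and 89 times, a ratio of levels of 165 (95% counting interval 29.4 to 6530). ARHGEF12, a guanine nucleotide exchange factor for RhoA, fell from 136.5 ± 11.7 to 67.5 ± 3.71 CPM (log2 fold change -1.02, adjusted p = 1.33e-12), and the DNA demethylase gene TET1 fell from 13 to 15 counts per SEM::mock library to 5 to 25 in the deeper SEM::EGR3 libraries (log2 fold change -1.08, adjusted p = 0.00518). Over all lists together, 58 genes that are not members were tested, of which 24 were higher, 17 lower and 17 not called. These counts are near the shares over all tested genes. The 58 genes had a median log2 fold change of 0.12, beside 0.03 for all tested genes.

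**Figure D5:**
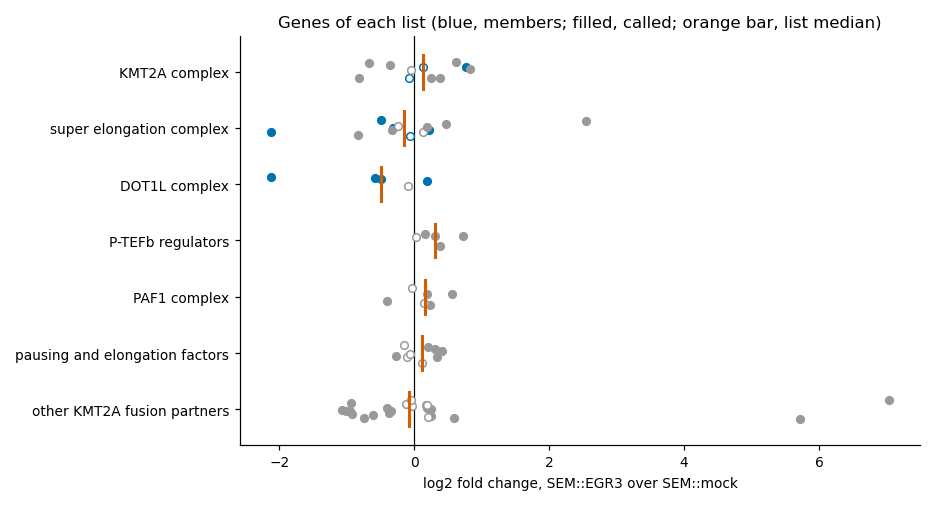
Fitted log2 fold change of SEM::EGR3 over SEM::mock (x axis) of the tested genes of 7 lists (y axis); blue points are the members, grey points other genes, filled points passed an adjusted p of 0.05, and orange bars are list medians. Most genes lie within 1 of 0; MLLT3 at -2.13, AFF3 at 2.55, LPP at 5.71 and GAS7 stand apart.

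In their levels over the 6 libraries, centred on each gene's own mean, the genes most like KMT2A were ZNF12, CALU and GPANK1, with a root mean square difference of 0.023 to 0.029 on the log2 scale. For AFF1 they were RNF114, CHMP1A and NOL7 (0.014 to 0.017). As KMT2A and AFF1 hardly varied between libraries, this likeness is that of genes with nearly constant levels. Around the 6 members whose neighbours are not described above (MEN1, AFF1, ELL, MLLT1, DOT1L and MLLT10), the tested genes within 2 Mb had median log2 fold changes between -0.06 for DOT1L and 0.21 for ELL.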

How the data were processed

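MACE-Seq libraries of SEM::mock and SEM::EGR3 (3 each) were prepared at GenXPro. For every gene the deposited table holds whole-number counts in each library and CPM values (named TPM) by the authors, used here only to read library totals of 7172067 to 20310325, of which the listed genes make up 73.6% to 75.8%. The submitters' processing notes list bcl2fastq, Bowtie2, HTSeq and the build GRCh38. Annotation, strand setting and the use of molecular identifiers are not given in the sources used here, so genes that overlap, such as CDKN2A and CDKN2B-AS1, are uncertain. The table's headings spell EGR3 as ERG3 and were matched to the sample titles. Its 6 columns of size-factor normalized values and the authors' own fold changes and p-values were not used.

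Tests on these counts used edgeR 4.0.16 under R 4.3.3 (filterByExpr, TMM, glmQLFit and glmQLFTest over 6 libraries, Benjamini-Hochberg adjustment over 15465 genes). The procedure was tested on simulated data in which few genes changed. That does not test it where most genes are called, as here. Standard errors were derived from the F statistic. The 97.0% of gene identifiers found in GENCODE release 29 gave positions. Ratios against 0 counts are bounds at 3 counts per library. P-values measure the spread between biological replicates of 1 pair of lines. Members, lists and tests were chosen with earlier results of these data known. Named genes are EGR3, the members, up to 2 increases and 2 decreases per list, the tested genes within 3 Mb of MLLT3 and marker genes; CDK9, CCNT1, WDR5, MLLT6, ELL3 and CD3E were added after their values were seen. Alternatives were DESeq2 1.42.0, upper-quartile normalization or no normalization factors, a minimum of 10 counts per library or no filter, a replicate block and fits without each library in turn.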

Additional observations from a re-analysis of the deposited data

How the results depend on the processing

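PSIP1, MLLT1, MLLT3 and MLLT10 kept their direction and call under all 12 alternatives, while the calls of AFF4, ELL and DOT1L were lost under 2, 3 and 8 of them. Members called higher numbered 3 and fell to 1 without SEM::mock replicate 1 or replicate 3 (1 to 3 over the fits that left out a library). The log2 fold changes of KMT2A and AFF1 turned to 0.00 and 0.01 without normalization factors, where the median of all genes was 0.11 instead of 0.03 and MEN1 was called higher (0.21, adjusted p = 0.0279). Genes near MLLT3 called higher numbered 7 when each library had to hold 10 counts, a filter that removes the 4 genes at 0 or 1 count in SEM::mock and AL391834.1. Those called lower numbered 0 under that filter, which also removes SLC24A2, and 1 under DESeq2, no normalization factors, upper-quartile normalization, the replicate block and 4 of the 6 fits without a library (1 to 2), where the call of CDKN2B-AS1 was lost. AL356000.1, not called, turned to -0.03 without SEM::mock replicate 2 and to -0.00 without SEM::EGR3 replicate 2 (-0.03 to 0.09 over these fits). Same-numbered replicates did not deviate together over the tested genes (correlations -0.105, -0.0635 and -0.034). With so few libraries per line, this cannot exclude that same-numbered libraries share a batch. The replicate block ended the calls of DOT1L, CDK9 and CDKN2B-AS1 among the 46 single genes recomputed. Over these 46 genes, 495 of 540 values kept their direction and side of the threshold. Over all genes, the block called 5388 higher and 4693 lower, DESeq2 5015 and 4376. Depth limits AL391834.1, TASP1, HEXIM2, TET1, AFF3 and SLC24A2, with 4 to 22 counts per SEM::mock library.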
